A study of Mus musculus with 7 samples.

Results

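Among the 5 pools of mouse embryos with at least 1 intact Adnp copy, 2 gave a strong signal for Ttr, the thyroxine and retinol carrier transthyretin, and 3 did not, and the genes that differed between these sets of pools are described here. Pools were chosen by their measured Ttr signal on the brightest probe set annotated to Ttr alone: wild type 1 (665.5) and heterozygous 2 (431.3) lay above 300, and wild type 2 (60.8), heterozygous 1 (44.7) and heterozygous 3 (86.3) lay below it. The member just inside the threshold read 431.3 and the one just outside 86.3. These 5 pools were 5 of the 7 arrays of the study, and the remaining 2 were Adnp knockout pools, with Ttr at 1936.8 and 2653.5. The study asked which genes lie downstream of ADNP, a homeodomain protein needed for the embryo to develop past mid-gestation.

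The embryos were C57BL/6, taken at embryonic day 9, of mixed sex per the labels, from a colony of Adnp heterozygous mice, with no treatment named there. Wild-type pools carried 2 intact Adnp alleles, heterozygous pools 1 and knockout pools 0, as typed in yolk sac DNA with primers for Adnp and for the neomycin resistance gene of the mutant allele. Each array held RNA from 2 littermates of 1 genotype, so the 5 control pools stand for 10 embryos, and the sources used here do not say how litters were spread over the pools. Yolk sac and amnion had been dissected off, and the labelled tissue was the whole embryonic body. Markers of the embryo proper were bright in all 5 control pools: the cardiac actin gene Actc1 read 2149 to 2563.7 and the embryonic globin gene Hbb-bh1 2942.2 to 5088.2.

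Visceral endoderm is the absorptive and secretory epithelium that covers the early embryo and later lines the yolk sac. It takes up maternal nutrients through the cubilin, amnionless and megalin receptors, degrades them in lysosomes, and secretes carriers of lipid, retinol and thyroxine before the liver does so. Many of its products are therefore plasma proteins that the fetal liver makes later. In RNA of whole embryos, fewer cells of a type and less RNA per cell cannot be told apart.

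Every value is a MAS5 signal, the brightness of a probe set after the authors' scaling of each array. Median signals were 55.5 to 57.4, and the control arrays had pairwise Pearson's r of 0.963 to 0.982, taken over genes, which are no replicates. Ratios of 3′ to 5′ control signals differed between the sets without overlap. For actin the ratio was 1.09 and 1.11 in the high-Ttr pools and 0.99 to 1.06 in the low-Ttr pools. For Gapdh it was 0.868 and 0.881 against 0.801 to 0.821, and the part of these ratios in the results was not tested. Heterozygous 1 stood apart: its 18S ribosomal control probe set read 1099.8, against 57.2 to 136.9 elsewhere, and its BioDn hybridisation control 752.4, against 1067.9 to 1455. Prl8a2, a prolactin-family gene of the decidua, the maternal lining of the uterus, read 828.6 on this array, against 16.2 to 37.6 in the other control pools and 46.1 and 138.4 in the knockout. The part of this array in the results was not tested, and the counts and the list medians it moved most are given without it as well. The pools were sorted by a measured value, so the comparison of high with low pools is a description with no test, and the number of arrays limits its precision. A gene is called higher or lower here where the 2 sets of pools did not overlap and their mean log2 signals differed by at least 1, which is 2-fold.

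Of 8019 genes measured, 17 were higher (0.212%) and 14 were lower (0.175%) in the high-Ttr pools. Of the 17 higher genes 11 stood in lists of visceral endoderm, which hold 102 of the 8019 measured genes: Apoc2, Ttr, Apoa1, Spink1, Rbp4, Amn, Afp, Cubn, Lefty1, Spp2 and Apom. Ttr, which set the split, and the markers Afp, Rbp4 and Apoa1 are among the 11. The other 6 were Malat1, Zfp1, Hkdc1, Ceacam1, Prss8 and Car4. The lower genes were Ptpn23, Sirt2, Hoxd9, Dclre1b, Sh3gl3, Pde8a, Rtn1, Hoxd8, Ppp1r14a, Mpp2, Cap1, Elavl3, Tle5 and Cldn3. Most differences among genes were far smaller, with a median size of 0.14 and a 99th percentile of 0.81 on the log2 scale. Because the split rests on Ttr, nothing is read from these counts. With so small a share of all genes called, 0 calls in a list below is no result about that list.

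These counts moved with single pools: 37 genes were higher and 25 lower without heterozygous 3, 28 and 29 without heterozygous 2, 25 and 27 without wild type 1, and 23 and 9 without heterozygous 1. Amn, Apoc2, Cubn, Hkdc1, Lefty1, Prss8, Spink1, Spp2 and Zfp1 entered the set of measured genes only because the brightness filter counted the knockout arrays. The same held for Pde8a among the lower genes. With the brightness filter set on the 5 control arrays 8 genes were higher (0.1%) and 14 lower (0.175%) of 8000. The 8 were Ttr, Afp, Rbp4, Apoa1, Apom, Malat1, Ceacam1 and Car4, of which 5 are in the visceral endoderm lists and 4 are the markers.

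Afp, Rbp4 and Apoa1, the other markers given for these pools, followed Ttr. Ttr itself averaged 548.4 ± 166 in the high pools (SD, n = 2) and 63.9 ± 21.0 in the low pools (n = 3), a log2 difference of 3.04, and its other probe sets ordered the pools likewise, at 277.2 and 147.5 against 14.9 to 54.4 on one and 274.1 and 158.8 against 16.7 to 36 on the next. Afp, alpha-fetoprotein, the main plasma protein of the fetus, read 559.7 in wild type 1 and 323.3 in heterozygous 2, against 140.5 in wild type 2, 131.4 in heterozygous 1 and 152.6 in heterozygous 3 (log2 difference 1.57). Rbp4, the plasma carrier of retinol, read 545.2 and 329.8 in the high pools, against 106.3, 100.6 and 151.8 (1.82). In all 3 genes wild type 1 was the highest control pool. On the brightest probe sets the low pools ran from 131.4 to 152.6 for Afp, 100.6 to 151.8 for Rbp4 and 44.7 to 86.3 for Ttr. Heterozygous 3 was the highest low pool in each.

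Apoa1, the main protein of high-density lipoprotein, read 142.7 in wild type 1 and 73.8 in heterozygous 2, against 14.2 in wild type 2, 11.8 in heterozygous 1 and 65.3 in heterozygous 3, a log2 difference of 1.99. Heterozygous 3 thus lay just below heterozygous 2 on this probe set. On the 3 other probe sets of Apoa1 it read 9.3, 6.7 and 14.8, against 62.4, 96.5 and 114.5 in heterozygous 2, so its near-high Apoa1 level was seen on 1 of 4 probe sets only. Those 3 probe sets gave log2 differences of 3.29, 3.63 and 3.77 between high and low pools.

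Other apolipoproteins, which package lipid for export, followed the same split by varying amounts. Apoc2, the cofactor of lipoprotein lipase, had the largest log2 difference of all genes called higher, 3.21, at 147.9 and 80.8 in the high pools against 9.3, 0.5 and 28.7. Without heterozygous 1 its difference was 2.46, below the 2.82 of Ttr. Apom, a carrier of sphingosine-1-phosphate, read 86.8 and 55.1 against 24, 30 and 31.1 (1.19). Apob, the structural protein of very-low-density lipoprotein, read 49.1 and 35.2 against 20.2, 15.9 and 26 (0.91), and Apoa2, a further protein of high-density lipoprotein, 89.5 and 42 against 28.2, 32.6 and 27.3 (0.98). Both missed the 2-fold mark although their pools did not overlap.

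The lipid group was not uniform. Apoe, a ligand of lipoprotein receptors, was high in wild type 1 alone, at 209, with 91.6 in heterozygous 2 beside 85.3, 93 and 84.1 in the low pools. Mttp, which loads lipid onto apolipoprotein B, read 49.4 and 40.5 against 52.6, 50.1 and 49, with no higher level in the high pools. Of 16 listed lipoprotein genes 9 were measured; 3 were called higher (against 0.212% of all genes) and 0 lower, 5 did not overlap in the higher direction (against 13.4% of all genes), and the median log2 difference was 0.91 beside 0.0018 over all genes. Without heterozygous 1 the median was 0.76.

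The endocytic receptors divided into a pair that was called and a group that was not. Cubn, the receptor cubilin, read 71.5 in wild type 1 and 41.6 in heterozygous 2, against 17.9, 14 and 25.4 in the low pools (log2 difference 1.38, and 2.92 on its other probe set). Amn, the membrane anchor of cubilin, read 63.6 and 57.8 against 21.5, 3.8 and 36.1 (1.71; 1.02 without heterozygous 1). Lrp2, megalin, the large partner of cubilin, overlapped at 59.2 and 66.3 against 41.1, 60.8 and 58.4. Dab2, an adaptor of these receptors, was at 445.6 in wild type 1 but at 321.2 in heterozygous 2, inside the range of the low pools (254.4 to 333.7). Tfrc, the transferrin receptor, was higher without overlap by 0.21, and Ap2a2, an adaptor subunit, lower without overlap (-0.12). Of 10 measured genes of 11 listed, 2 were higher (against 0.212% of all genes) and 0 lower. In this list 3 did not overlap in the higher direction and 1 in the lower (against 13.4% and 14.2% of all genes). The median log2 difference was 0.22 (0.31 without heterozygous 1). Both called genes passed the brightness filter only through the knockout arrays.

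Secreted proteins beyond the carriers showed the same division. Spink1, a secreted trypsin inhibitor, read 90.5 and 64.1 against 6, 19.9 and 41.4 (log2 difference 1.87), and Spp2, a secreted phosphoprotein, 66.2 and 39.8 against 14.6, 20.8 and 21 (1.30). F2, prothrombin, overlapped at 27.2 and 36 against 27.5, 35.7 and 30.2, and so did Serpinf2, antiplasmin, at 63.2 and 44.9 against 42.3 to 55.9. Vtn, vitronectin, went the other way without overlap, at 33.6 and 38.3 against 59.9, 77 and 46.5, as did Serpinf1, an inhibitor of blood vessel growth, at 220.2 and 257.9 against 280.6 to 345. Of 33 listed genes 12 were measured, 5 were higher (against 0.212% of all genes) and 0 lower, and the median was 0.22 (0.30 without heterozygous 1). The 5 are Ttr, Afp and Rbp4, which are markers of the split, and Spink1 and Spp2, which passed the filter only through the knockout arrays.

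Among the 6 higher genes outside those lists, Car4, a membrane carbonic anhydrase, was brightest, at 357.1 and 282 against 114.2, 126.9 and 210.7 (log2 difference 1.11). Ceacam1, an epithelial adhesion molecule, read 52.2 and 90.7 against 24.6, 32.3 and 23.5 (1.26), and Hkdc1, a hexokinase-like protein, 41.4 and 38.6 against 19.6, 6 and 22.5 (1.27; 0.82 without heterozygous 1). Prss8, the membrane serine protease prostasin, read 53.1 and 46.7 against 38.6, 28.9 and 6.4 (1.15; 0.53 without heterozygous 3). Zfp1, a zinc-finger protein gene, read 61.5 and 53.8 against 26.7, 4.3 and 29.7 (1.60; 0.94 without heterozygous 1). The level of the dimmest low pool therefore set much of the size in Hkdc1, Prss8 and Zfp1.

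Malat1, a long nuclear RNA that is no visceral endoderm marker, read 263 and 271.1 in the high pools against 79.9, 7.6 and 54.2 (log2 difference 2.83, or 1.96 without heterozygous 1). Its 4 other probe sets were dimmer and gave 1.13, 1.01, 0.56 and -0.70, so neither its size nor its direction was the same on every probe set. Lefty1, an antagonist of Nodal signalling, was the only higher gene among the 10 measured signals and antagonists of visceral endoderm, at 50.9 and 77.4 against 9.3, 26.9 and 39.7 (1.36; 0.87 without wild type 2). Ihh and Cited1, a hedgehog ligand and a transcriptional coregulator of that tissue, were slightly higher without overlap, by 0.35 and 0.29. Pth1r (-0.25), Dkk1 (-0.16) and Vegfa (-0.11) of the same list leaned lower with overlap. Of the 10 genes 5 had a positive and 5 a negative difference, and the median was -0.0064. In this list 3 did not overlap in the higher direction and 0 in the lower (against 13.4% and 14.2% of all genes). The 1 call stands against 0.212% of all genes.

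**Figure D1:**
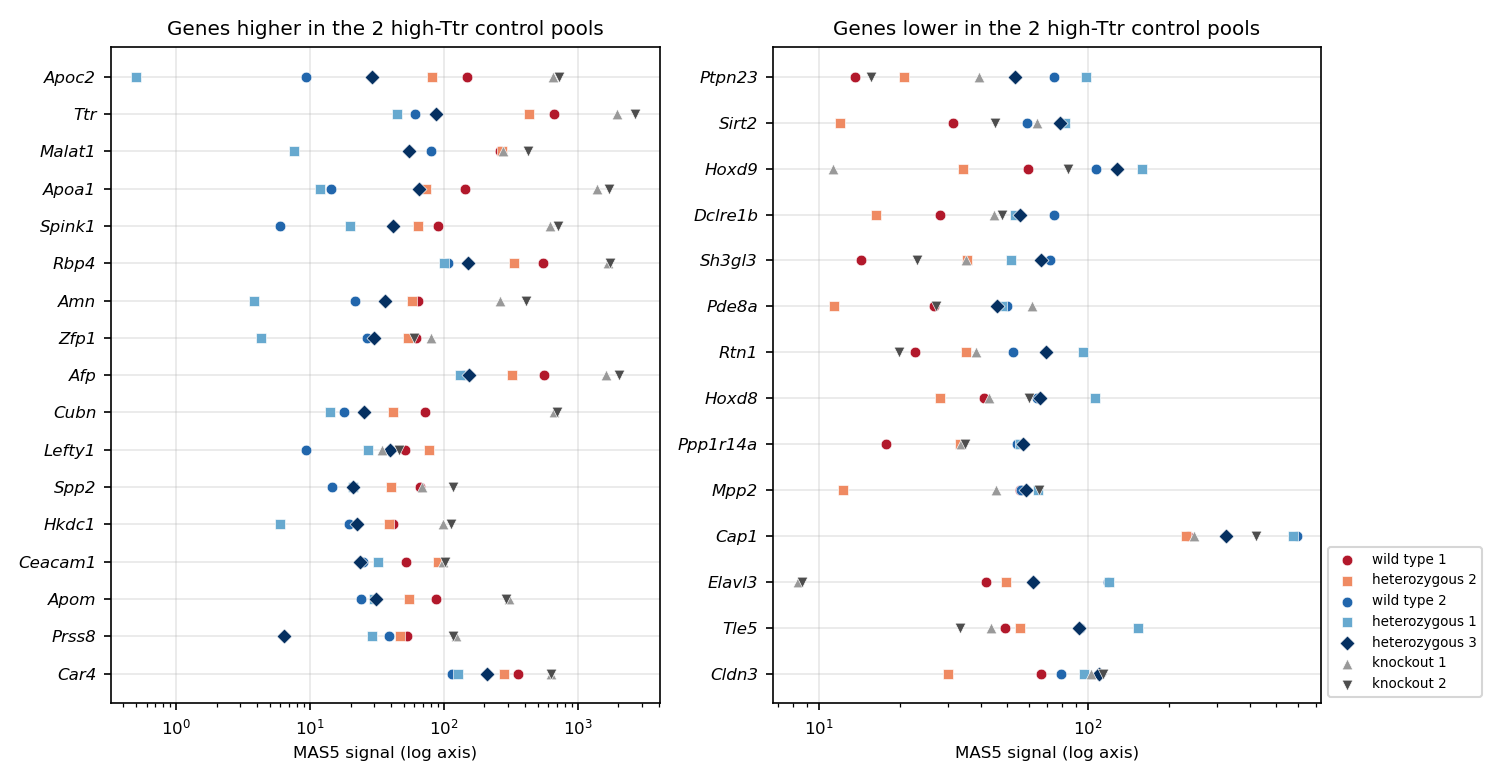
MAS5 signal on a log axis for the 17 genes called higher (left) and the 14 called lower (right) in the high-Ttr pools; each symbol is 1 array, with the high-Ttr pools in red and orange, the low-Ttr pools in blue and the knockout arrays in grey. In the left panel Ttr runs from 44.7 in heterozygous 1 to 2653.5 in knockout 2, and heterozygous 3 is often the low pool nearest to the high ones.

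Bases before the transcription start of Afp, Apoa1 and Cubn are shown because these carriers and this receptor stood together in the pools. They are the 250 bases 5′ of each start, from RefSeq on GRCm38.p6, read along the gene's strand: chr5:90490464-90490713 on the plus strand for Afp, chr9:46228380-46228629 on the plus strand for Apoa1 and chr2:13491877-13492126 on the minus strand for Cubn. Capitals mark matches on either strand to 4 short motifs of endoderm transcription factors: the half-site of HNF1, read as GTTAAT, the core of HNF4, read as CAAAGNNCA, the site of GATA factors, read as AGATAA, and that of FOXA factors, read as TGTTTNC. No match of 1 motif overlapped that of another in these 3 sequences.
Afp: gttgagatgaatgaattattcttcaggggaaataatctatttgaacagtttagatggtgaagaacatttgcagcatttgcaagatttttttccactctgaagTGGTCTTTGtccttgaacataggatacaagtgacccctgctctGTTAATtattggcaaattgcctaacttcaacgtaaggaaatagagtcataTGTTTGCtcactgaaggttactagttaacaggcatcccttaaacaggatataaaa
Apoa1: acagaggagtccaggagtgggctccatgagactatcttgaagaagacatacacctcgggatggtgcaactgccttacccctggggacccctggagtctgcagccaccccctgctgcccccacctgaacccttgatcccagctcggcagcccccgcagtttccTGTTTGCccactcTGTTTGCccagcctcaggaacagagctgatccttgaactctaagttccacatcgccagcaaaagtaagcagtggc
Cubn: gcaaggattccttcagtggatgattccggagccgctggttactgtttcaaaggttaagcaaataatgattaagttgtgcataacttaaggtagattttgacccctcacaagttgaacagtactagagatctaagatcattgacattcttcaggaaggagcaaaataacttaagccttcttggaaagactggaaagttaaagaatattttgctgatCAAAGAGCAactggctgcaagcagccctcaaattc

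In Afp a match to the HNF4 motif lay on the minus strand from -148 to -140 relative to the start, one to the HNF1 half-site from -105 to -100 and one to the FOXA motif from -55 to -49. Apoa1 held FOXA matches at -88 to -82 and at -75 to -69, and Cubn an HNF4 match at -35 to -27. Of the 17 higher genes 13 had promoters in the table, with 14 starts. The FOXA letters were found in 4 of the 14 (28.6%; Afp, Apoa1, Apom and Rbp4) and in 17.8% of all 32851 promoters, the HNF4 letters in 3 (21.4%; Afp, Cubn and Spp2) and in 5.49%, the HNF1 letters in 2 (14.3%; Afp and Apoc2) and in 6.43%, and the GATA letters in 1 (7.14%; Spp2) and in 9.99%. In 16 promoters of the lower genes these letters occurred in 0, 1, 2 and 0. Of the higher genes with a match, Afp, Apoa1 and Rbp4 are markers of the split. Cubn, Spp2 and Apoc2 passed the brightness filter only through the knockout arrays. No enrichment is therefore read from these shares. A match is a description of letters, not a bound site.

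The epithelial genes of the visceral endoderm leaned the same way by small amounts. Of 28 listed genes of brush border and epithelium 17 were measured, 0 were called higher and 1 lower, 8 did not overlap in the higher direction and 1 in the lower (against 13.4% and 14.2% of all genes), and the median log2 difference was 0.34, with 15 of 17 positive. Krt8, a keratin of simple epithelia, read 414.2 and 377.4 against 235.9, 210.8 and 348.4 (0.60), Ezr, the brush-border linker ezrin, 240.9 and 242.8 against 192.4, 133.5 and 172.5 (0.55), and Cldn6, a claudin of embryonic epithelia, 296.3 and 327.4 against 238.6, 200.8 and 272.5 (0.40). Cldn3, another claudin, was the gene called lower, at 66.6 and 30.2 against 79.3, 96.1 and 109.3 (-1.0, or -0.48 without heterozygous 2). Its other probe sets gave 0.71, -0.48 and -0.05, and only the last of these was bright enough to pass the filter.

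No endoderm transcription factor was called between the pools. Hnf4a, the nuclear receptor that drives many apolipoprotein genes, read 83.1 in wild type 1 and 76.8 in heterozygous 2, against 10.6 in wild type 2 and 15 in heterozygous 1, but 87.2 in heterozygous 3, the highest control value. Foxa2 (134.6 and 118.3 against 114.3 to 125.9) and Gata4 (97.7 and 103.2 against 89.8 to 101.2) were at like levels in all 5 pools, and Elf3, an epithelial factor, was lower without overlap, at 61 and 64.8 against 86.4, 78 and 71.4 (-0.30). Of 10 measured factors 0 were called (against 0.212% of all genes higher and 0.175% lower), and the median was 0.04 (0.07 without heterozygous 1). Yolk sac transporters had 0 calls among 12, against the same shares of all genes, with a median of 0.13. Slc2a3, a glucose transporter, read 2585.8 and 2463.3 against 1535, 1423.7 and 2292.8 (0.56) without overlap.

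Lysosomal and metal-handling genes, which are abundant in visceral endoderm, had no called member, where 0.212% of all genes were called higher and 0.175% lower. Of 19 measured lysosomal genes 0 were called, 4 did not overlap in the higher direction and 2 in the lower (against 13.4% and 14.2% of all genes), and the median log2 difference was 0.04. Without heterozygous 1, 7 did not overlap in the higher direction, against 19.6% of all genes, and the median was 0.12. Ctsh, a lysosomal aminopeptidase, stood highest at 67.9 and 47.9 against 41.7, 24.4 and 44.4 (0.62), while Ctsl, cathepsin L, overlapped at 742.7 and 697.3 against 599.4 to 733.3. Mt1, a metallothionein, was at 158.6 and 179.4 against 164.5, 134.5 and 213, and Mt2 at 251.1 and 268.5 against 336.2, 205.8 and 365. With Mtf1, the metal-sensing regulator, and Slc30a1, a zinc exporter, these made up the 4 measured genes of the metal list. The list had a median of -0.15 (-0.29 without heterozygous 1) and 0 called. Slc30a1 was lower without overlap, at 30.3 and 29.2 against 46.8, 45.7 and 41.1 (-0.52), and Mtf1 overlapped. Without heterozygous 1, 2 of the 4 did not overlap in the lower direction, against 19.7% of all genes.

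Dim genes of the same tissue, left out by the brightness filter, are given as values only. Slc2a2, the glucose transporter of liver and yolk sac, read 48.3 and 38.1 in the high pools against 2.6, 9.6 and 2.5, and Pdzk1, a scaffold of brush-border transporters, 47.6 and 33.8 against 11.3, 1.7 and 5.2. Vil1, villin, read 23.6 and 29.1 against 3.4, 3 and 8.8, and Fga, a fibrinogen chain, 30.8 and 31.2 against 1.3, 1.7 and 19.2. Alb, albumin of the later liver, overlapped at 15.6 and 22.7 against 5.4 to 23.5. Others were lower in the high pools: Anpep, a brush-border aminopeptidase, read 5 and 22.3 against 31.4, 27.3 and 24.3, and F10, coagulation factor X, 17.5 and 9.3 against 24.7, 22.7 and 21.5. Apoc3, an apolipoprotein, overlapped at 13.8 and 27.5 against 20.3 to 24.6, and Creb3l3, a transcription factor of liver and gut, at 10.5 and 12.1 against 4.2 to 57.3. Several of these signals are not far from the pseudocount, 3.8, which was added to each signal before taking logs, so no fold is given.

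Genes of newly formed neurons lay on the lower side in the high-Ttr pools, with 1 of them called. Elavl3, an RNA-binding protein of young neurons, read 41.6 in wild type 1 and 49.4 in heterozygous 2, against 118.2 in wild type 2, 119.8 in heterozygous 1 and 62.2 in heterozygous 3, a log2 difference of -1.02. Its call was narrow: it was lost with a pseudocount of 16, a filter at the 60th percentile, quantile normalisation or the mean of all probe sets, at 3-fold and without wild type 1, wild type 2 or heterozygous 1. Nefm, the medium neurofilament, read 58.2 and 58.8 against 178, 153.6 and 62.5 (-0.99), Tubb3, the neuronal tubulin, 59.3 and 63.7 against 149.5, 123.6 and 67.2 (-0.77), and Stmn2, a microtubule regulator of growing axons, 79.8 and 69.3 against 168.7, 155.5 and 114.7 (-0.92). In Elavl3, Nefm and Tubb3 heterozygous 3 lay near the high pools, well below the other low pools.

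Of 23 listed neurogenesis genes 17 were measured, 1 was called lower and 0 higher, and 11 did not overlap in the lower direction (against 14.2% of all genes) and 0 in the higher. All 17 had a negative log2 difference, with a median of -0.48, the smallest sizes being those of Gap43 (-0.0072) and Nhlh1 (-0.10). The mean log2 signal of the list was 6.32 in wild type 1, 6.41 in heterozygous 2 and 6.54 in heterozygous 3, against 7.01 in heterozygous 1 and 7.06 in wild type 2. Without heterozygous 1 the median was -0.34, with 11 of 17 again not overlapping, and without heterozygous 3 it was -0.71. Genes of neural progenitors and brain patterning had a median of 0.06 with 0 of 19 called (against 0.212% of all genes higher and 0.175% lower).

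Rtn1, an endoplasmic reticulum protein of neurons, was lower too, at 22.6 and 35.1 against 52.4, 95.7 and 69.5 (-1.21). Sh3gl3, an endophilin of synaptic vesicle uptake, read 14.3 and 35.4 against 72, 51.5 and 66.9 (-1.32; -0.77 without wild type 1). Hoxd9 and Hoxd8, neighbouring homeobox genes of the posterior body axis, read 59.7 and 34.2 against 106.7, 158.3 and 128.1 (-1.44), and 41 and 28 against 64.7, 105.8 and 66.2 (-1.10). Of 17 measured Hox genes these 2 were called, 4 did not overlap in the lower direction (against 14.2% of all genes) and 0 in the higher, and the median was -0.14. Without heterozygous 1 the median was -0.02 and Hoxd9 alone was called, with 6 not overlapping in the lower direction (against 19.7% of all genes).

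The remaining lower genes belonged to no common list. Ptpn23, a phosphatase-like protein of endosomal sorting, had the largest difference, at 13.6 and 20.6 against 74.3, 98 and 53.6 (-1.90). Sirt2, a deacetylase, read 31.4 and 11.9 against 59, 81.8 and 78.6 (-1.70; -1.11 without heterozygous 2), and Dclre1b, a nuclease of telomere ends, 28.2 and 16.3 against 74.6, 53.3 and 55.8 (-1.34). Pde8a, a phosphodiesterase, read 26.8 and 11.3 against 49.9, 47.7 and 45.9 (-1.26; -0.75 without heterozygous 2), and Ppp1r14a, a phosphatase inhibitor of smooth muscle, 17.7 and 33.3 against 54.1, 55.9 and 57.1 (-1.07; -0.68 without wild type 1). Cap1, an actin regulator, was the brightest, at 234.9 and 231.5 against 595, 578.3 and 325 (-1.04), and Tle5, a corepressor, read 49 and 55.9 against 93, 153.6 and 92.1 (-1.02). Mpp2, a membrane scaffold, was low in heterozygous 2 alone, at 12.2, with 55.7 in wild type 1 beside 56.2, 64.8 and 58.5 (-1.04; -0.09 without heterozygous 2).

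Many of these lower genes were dim. In 9 of the 14 the mean signal of the high pools was under 40, and in 12 of the 17 higher genes the mean of the low pools was under 40, where MAS5 signals are least precise. Of the 31 called genes 12 had further probe sets, 30 in all, of which 24 differed in the same direction. All 13 of those bright enough to pass the filter did so, though the one of Cldn3 by -0.05 only. These 13 include the further probe sets of Ttr, Afp and Apoa1, which are markers of the split. They also include that of Cubn, which was measured only through the knockout arrays. The rest belong to Malat1, Cap1, Car4 and Cldn3, so no support for the calls is read from this count.

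**Figure D2:**
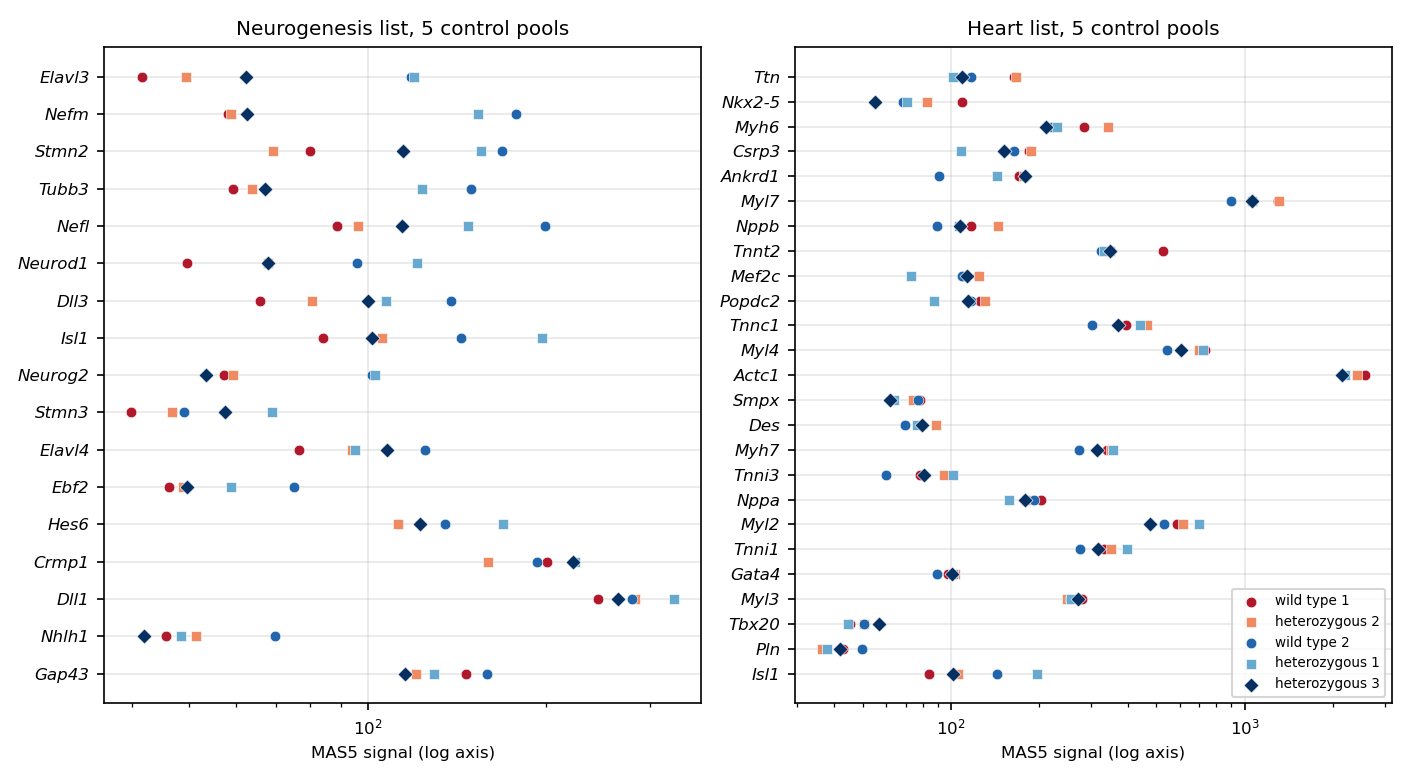
MAS5 signal on a log axis in the 5 control pools for the measured genes of the neurogenesis list (left) and of the heart list (right), 1 symbol per array, with high-Ttr pools in red and orange and low-Ttr pools in blue. On the left Elavl3 is at 41.6 and 49.4 in the high pools and at 62.2 to 119.8 in the low ones, and on the right Ttn is at 163.5 and 167 against 101.3 to 116.8.

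Heart genes lay slightly on the higher side. Ttn, the giant muscle protein titin, read 163.5 and 167 against 116.8, 101.3 and 108.6 (log2 difference 0.59), Nkx2-5, a cardiac transcription factor, 108.7 and 82.9 against 68.7, 70.7 and 55.3 (0.53), and Myh6, the atrial myosin heavy chain, 282.9 and 341.4 against 220, 228.9 and 209.9 (0.49). Of 25 measured heart genes 0 were called, 10 did not overlap in the higher direction (against 13.4% of all genes) and 0 in the lower, 22 had a positive difference and the median was 0.19. Without heterozygous 1 these were 15, 0 and a median of 0.23, when 19.6% of all genes did not overlap in the higher direction. Without wild type 2 the median was 0.12.

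Genes of primitive red cells, which circulate between yolk sac and embryo, lay on the lower side. Hba-x, an embryonic alpha-like globin, read 3549.6 and 2813.1 against 5823.4, 4356 and 3723.8 (log2 difference -0.53), and Alas2, the erythroid enzyme of haem synthesis, 104.7 and 93.5 against 175.2, 195.9 and 128.2 (-0.71). Of 14 measured genes 0 were called, 5 did not overlap in the lower direction and 1 in the higher (against 14.2% and 13.4% of all genes), and the median was -0.13. Without heterozygous 1 these were 6 and 1 (against 19.7% and 19.6%) and a median of -0.23. Hbb-y, another embryonic globin, overlapped at 4265.6 and 3612.3 against 3539.4 to 5438.8.

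Markers of other tissues that a dissected embryo could carry were examined beside these results. No gene of the lists for liver bud, definitive gut endoderm, parietal endoderm and basement membrane, trophoblast, decidua, amnion, endothelium or macrophages was called in either direction, at 5, 6, 14, 3, 7, 9, 19 and 2 measured genes. Of all genes 0.212% were called higher and 0.175% lower, so lists of this size would seldom hold a call. For trophoblast 3 of 22 listed genes passed the filter and for macrophages 2 of 14, so these lists say little. In the decidua list Prl8a2 was high in heterozygous 1 alone, at 828.6, and the list's median was -0.15, or 0.17 without that array. The parietal endoderm list had a median of -0.08, with Sparc and Col4a2, basement membrane genes, at -0.43 and -0.44. Its mean log2 signal was 8.14 and 8.10 in the high pools and 8.14 to 8.32 in the low ones. How much RNA of yolk sac or another dissected tissue each pool held was not tested.

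The high pools did not share a genotype or a sex-linked profile. Xist, the RNA of X inactivation, read 801 in wild type 1 and 62 in heterozygous 2, with 844.4, 595 and 548.2 in the low pools. The mean log2 signal of 3 Y-linked genes was 3.56 and 5.99 in the high pools and 3.14, 5.40 and 5.11 in the low ones. The high pools thus held the lowest Xist value of the controls and one near the top.

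The split was then taken within each genotype, which the 2 comparisons make on separate arrays. Wild type 1 exceeded wild type 2 at least 2-fold in 63 genes (0.786%) and lay below it in 45 (0.561%). Heterozygous 2 lay at least 2-fold above the mean of heterozygous 1 and 3, and beyond both, in 35 genes (0.436%) and below them in 35 (0.436%). The higher lists shared 10 genes, 15.9% of the 63 and 28.6% of the 35: Apoc2, Ttr, Malat1, Apoa1, Spink1, Rbp4, Amn, Zfp1, Afp and Lefty1. Ttr set the split in each genotype, so its place is fixed, and Afp, Rbp4 and Apoa1 are the other markers. Apoc2, Spink1, Amn, Zfp1 and Lefty1 passed the brightness filter only with the knockout arrays counted in it. No agreement between the genotypes is read from the number shared. The lower lists shared 4, 8.89% of the 45 and 11.4% of the 35: Ptpn23, Dclre1b, Rtn1 and Insm1, a transcription factor of neuronal and endocrine precursors that was named after its values were seen. Opposite directions were found for 3 genes, Amph, Fitm1 and Slc34a2, also named after their values were seen, which were higher in wild type 1 and lower in heterozygous 2.

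The sizes differed between the genotypes. The log2 difference of Ttr was 3.37 within wild type and 2.72 within heterozygotes, that of Apoa1 3.02 and 1.24, that of Spink1 3.27 and 1.05, and that of Malat1 1.67 and 3.42. For Apoa1 the 1.24 rests on heterozygous 3 at 65.3 on the brightest probe set. Its other probe sets read 9.3, 6.7 and 14.8 in heterozygous 3, against 62.4, 96.5 and 114.5 in heterozygous 2. Insm1 read 42 in wild type 1 and 91.6 in wild type 2, and 29 in heterozygous 2 against 82.5 and 51 (-1.06 and -1.07). The neurogenesis median was -0.74 within wild type and -0.40 within heterozygotes, and the lipoprotein median 1.26 and 0.69. With 1 array on the high side of each comparison, no difference between the genotypes was tested.

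**Figure D3:**
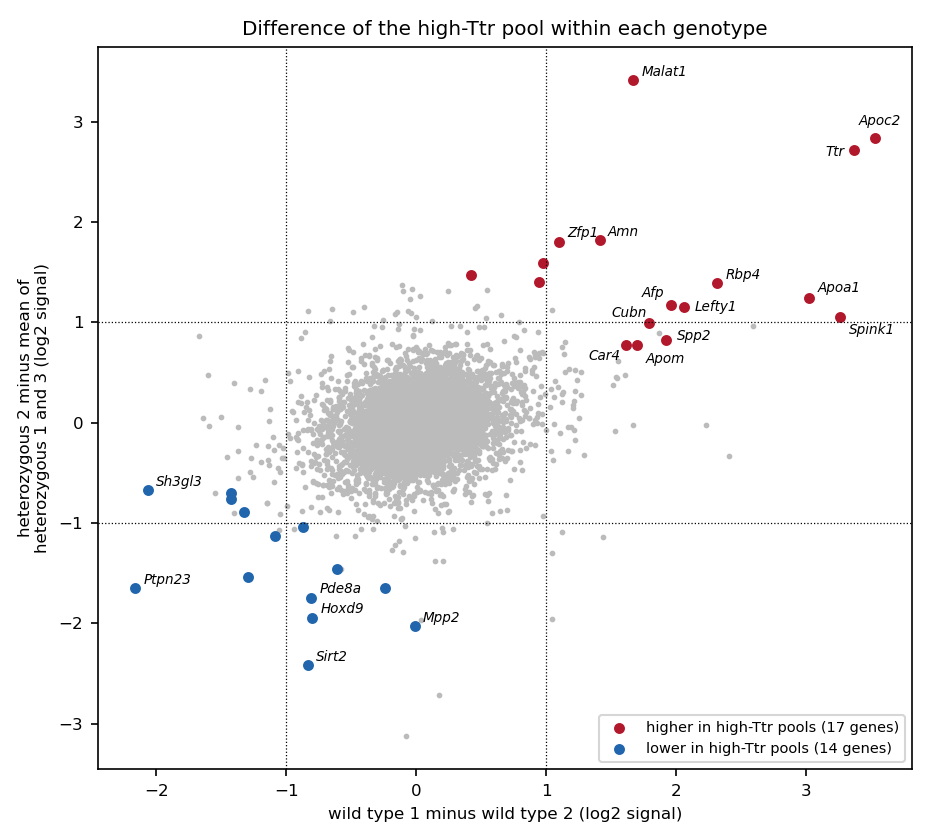
Log2 signal of wild type 1 minus wild type 2 (x axis) against heterozygous 2 minus the mean of heterozygous 1 and 3 (y axis) for 8019 genes, with the 17 genes called higher in red, the 14 called lower in blue and dotted lines at 2-fold. Apoc2 (3.53 and 2.84) and Ttr (3.37 and 2.72) lie farthest to the upper right, and Ptpn23 (-2.17 and -1.65) to the lower left.

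Within the 2 sets the pools kept a partial order. Wild type 1 exceeded heterozygous 2 in 14 of the 17 higher genes, Lefty1, Ceacam1 and Malat1 being the exceptions. Among the low pools heterozygous 3 was highest in 14 of the 17 and heterozygous 1 lowest in 10. For Ttr, heterozygous 3 at 86.3 was nearer to wild type 2 at 60.8 than to heterozygous 2 at 431.3, while for Hnf4a it exceeded heterozygous 2 and for the brightest Apoa1 probe set it came close to it. With 1 array per pool, neighbouring pools in this order cannot be said to differ.

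The knockout arrays, which the rule did not use, were set beside the control pools. Across all genes 346 rose (4.31%) and 386 fell (4.81%) in the knockout against the mean of the 5 controls (limma, adjusted p under 0.05). This comparison shares its control arrays with the split, so the values stand side by side and no overlap is read from them. The counts were 104 and 84 without knockout 1, and 86 and 72 without knockout 2.

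Of the 17 genes higher in the high-Ttr pools, 12 rose in the knockout (against 4.31% of all genes). Of these 12, Amn, Apoc2, Cubn, Hkdc1, Prss8 and Spink1 passed the brightness filter only through the knockout arrays, so the count is in part fixed by the filter and supports nothing. Cubn rose by 4.37 (log2; SE 0.44; adjusted p = 0.000197, limma), to 658.2 and 700.2, where the high pools read 71.5 and 41.6, and Apoa1 by 5.05 (SE 0.72, adjusted p = 0.00176), to 1395.7 and 1706.1. Their knockout means were 12.0-fold and 14.3-fold those of the high pools. Ttr, at 1936.8 and 2653.5, was 4.19-fold above the high pools (rise 3.90, limma, adjusted p = 0.0188), Afp 4.11-fold (3.01, 0.00295) and Rbp4 3.89-fold (3.09, 0.00569). Between high and low pools Ttr was 8.58-fold higher and Cubn 2.96-fold on its brightest probe set. Another Cubn probe set read 94.9 and 63.7 in the high pools against 3.8, 2.2 and 23.5 (log2 difference 2.92), near that of Ttr.

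Apoc2 rose by 4.53 (limma, adjusted p = 0.0217), Spink1 by 4.17 (0.00364), Amn by 3.38 (0.0112), Apom by 2.75 (0.00138), Hkdc1 by 2.07 (0.0229), Prss8 by 1.89 (0.0482) and Car4 by 1.64 (0.0185). The calls of Cubn, Apoa1 and Apom held whichever array was left out. Those of Ttr, Rbp4, Apoc2, Amn, Hkdc1, Car4 and Prss8 were lost without either knockout array, and those of Afp and Spink1 without knockout 2. The adjusted p reached 0.155 for Ttr and 0.234 for Prss8, whose call was lost without wild type 2 or heterozygous 1 as well.

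The other 5 did not pass. Malat1 read 273.6 and 420.5 in the knockout (difference 2.04, limma, adjusted p = 0.214), Zfp1 79.8 and 59.5 (1.21, 0.262), Spp2 68.5 and 115.7 (1.53, 0.0551; it passed without wild type 1) and Ceacam1 98.8 and 101.5 (1.27, 0.08; it passed without heterozygous 2). Lefty1 read 34.1 and 45.7, inside the range of the controls (0.19, adjusted p = 0.858). In the high pools Lefty1 had been at 50.9 and 77.4. Zfp1 and Lefty1 were the only 2 of the 17 in which a knockout array did not exceed every control pool.

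Of the 14 genes lower in the high-Ttr pools, Elavl3 fell in the knockout, to 8.3 and 8.6 (-2.62, SE 0.38, limma, adjusted p = 0.00203), and the other 13 did not pass. Hoxd9 read 11.2 and 84.2 (-1.30, adjusted p = 0.233), and Ptpn23 39.3 and 15.5 (-0.66, adjusted p = 0.553). Tle5 read 43.6 and 33.4 (-1.03, 0.0951; it passed without wild type 1). Sirt2 (64.5 and 45.1), Dclre1b (44.7 and 47.6), Hoxd8 (42.9 and 60.2), Ppp1r14a (33.7 and 34.9) and Mpp2 (45.4 and 65.4) had knockout differences between -0.21 and 0.29, as had Cap1 at -0.16.

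**Figure D4:**
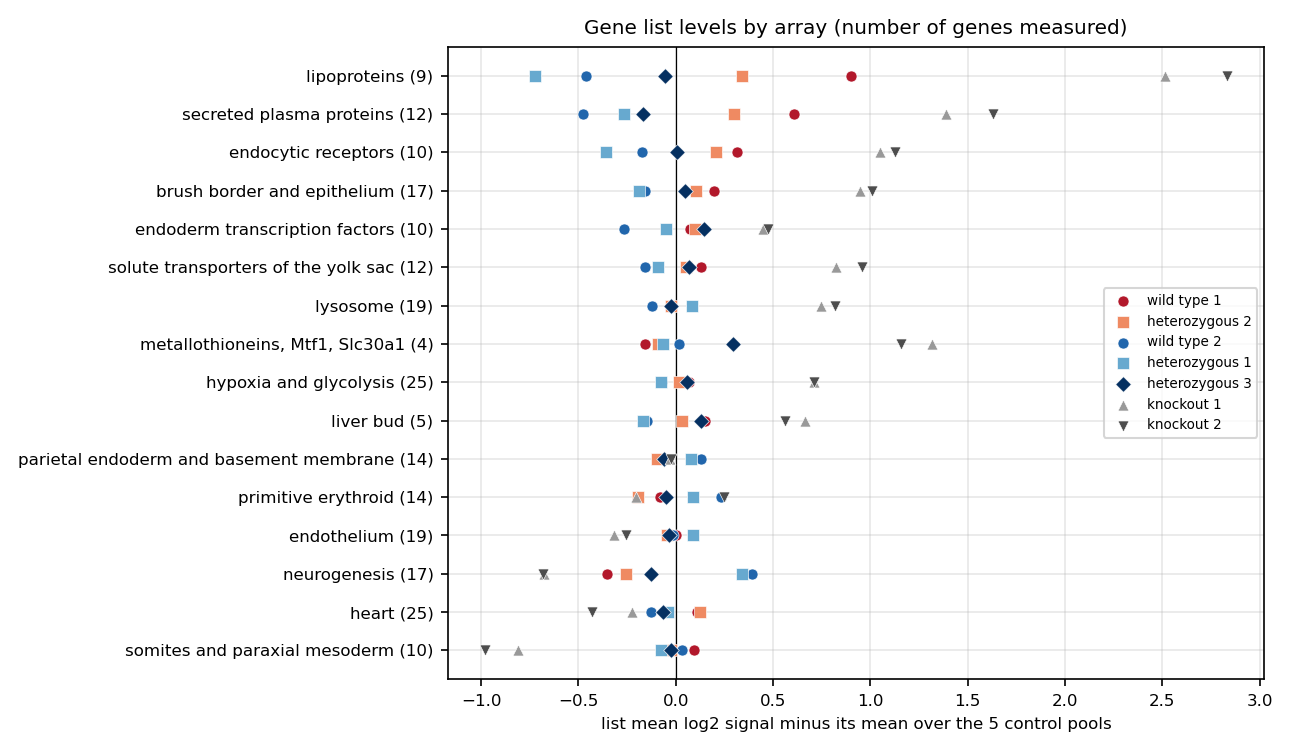
Mean log2 signal of each gene list on each array minus its mean over the 5 control pools, with the number of genes measured in parentheses; each symbol is 1 array, red and orange for the high-Ttr pools, blue for the low-Ttr pools and grey for the knockout. In the lipoprotein row the high pools lie right of the low ones and the knockout farther right, whereas in the lysosome, metallothionein (with Mtf1 and Slc30a1) and hypoxia rows the control pools lie together and the knockout apart.

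The lists are given side by side in the same way, and of all genes 4.31% rose and 4.81% fell in the knockout. Some members, Apoc2, Spink1, Cubn and Amn among them, passed the brightness filter only with the knockout arrays counted. Counts of rises are therefore in part fixed by the filter. Of the 9 lipoprotein genes 7 rose (limma), of 12 secreted plasma proteins 7 rose and 1 fell, of 10 endocytic genes 4 rose and of 17 epithelial genes 12 rose. Of 19 lysosomal genes 12 rose, of 12 transporters 8, of the 4 metal-list genes both metallothioneins, Mt1 and Mt2, and of 25 genes of hypoxia and glycolysis 18. Between the pools 0 genes of these 4 lists were called, against 0.212% of all genes called higher and 0.175% lower. The median log2 difference of the hypoxia and glycolysis list was 0.70 in the knockout and 0.05 between the pools. Of 17 neurogenesis genes 6 fell in the knockout: Elavl3, Elavl4, Neurod1, Nefl, Hes6 and Ebf2. In Stmn2 the knockout read 131.6 and 125.7, within the low pools' range of 114.7 to 168.7, where the high pools read 79.8 and 69.3.

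Genes that changed in the knockout and had a mean pool difference within 0.3 of 0 on the log2 scale were named by rule. Tex19.1, a gene of germ cells and placenta, rose by 2.91 to 215.8 and 237.8 (limma, adjusted p = 1.11e-05), from 20.5 to 30.9 in the controls. Mt1 rose by 2.46 (limma, adjusted p = 1.11e-05), Mt2 by 2.05 (9.56e-05), Ctsc, a lysosomal protease, by 2.11 (1.7e-05), Lgmn, the lysosomal protease legumain, by 2.06 (0.00202) and Stc2, a secreted glycoprotein, by 2.05 (0.000171). The pool differences of these 6 lay between -0.17 for Mt2 and 0.27 for Ctsc. Ctsc was higher without overlap, at 98.6 and 91.4 in the high pools against 82.3, 80.5 and 72.1. Another probe set of Stc2 gave a pool difference of -0.37.

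Among falls, Myl2, the ventricular myosin light chain, read 589.2 and 616.5 in the high pools, 532.7, 696 and 474.9 in the low pools and 95.4 and 84.2 in the knockout (log2 change -2.64, limma, adjusted p = 5.03e-06). Nppa, a natriuretic hormone of the atria, read 201.7 and 179.8, then 191.4, 157.8 and 178.7, and 54.6 and 34.5 in the knockout (-1.97, adjusted p = 8.07e-05). Pax1, a sclerotome transcription factor, stood at 65.9 and 65.6 in the high pools, 62.2, 81.7 and 52.9 in the low ones and 8.5 and 9.3 in the knockout (-2.44, 8.07e-05). Rad51c, a gene of homologous recombination, fell by 2.61 (0.00135), Fez1, an axonal transport adaptor, by 1.55 (0.000208) and Igdcc4, an immunoglobulin-family receptor, by 1.57 (0.0136). The call of Igdcc4 was lost without either knockout array. Its pool difference was -0.12, with -0.98 within wild type and 0.50 within heterozygotes.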

How the data were processed

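RNA of 7 embryo pools was read on Affymetrix 430A mouse arrays. The authors deposited intensity values, 1 linear signal per probe set. Per the submitters' processing notes MAS5 produced them; the sources used here do not give its version or scaling target. Groups came from the sample titles. Of 22690 probe sets, 64 are controls, 20380 carry 1 gene symbol, 691 several and 1555 none in the platform annotation. A gene (12393 symbols) was read from its brightest single-symbol probe set as log2(signal + 3.8), the 10th percentile of all values, which understates differences of dim genes. Genes under the 40th percentile of mean log2 signal over all 7 arrays were left out, which left 8019.

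High and low pools were compared without a test, since a value measured on them split them. Knockout and control were compared in R 4.3.3 with limma 3.58.1 (lmFit, eBayes with trend, 5 residual and 6.21 prior degrees of freedom), two-sided, with Benjamini-Hochberg adjustment over 8019 genes and a threshold of 0.05; 2017 genes had an unadjusted p under 0.05. The script was tested on simulated data. Nothing says that pools came from separate litters, so p-values measure the spread between pools.

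The members, the 34 lists (587 genes, 355 measured) and the naming rule were chosen with earlier results of these data known. The rule named Ttr, Afp, Rbp4 and Apoa1, the 12 largest differences each way that were 2-fold in each genotype, up to 4 called members per list, and 6 genes each of knockout rises, knockout falls and pool differences where the other comparison lay within 0.3 of 0. Other called genes and list members were chosen after their values were seen.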

Additional observations from a re-analysis of the deposited data

Results flagged for a closer look

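Some results ran in opposite directions in wild-type and heterozygous pools, and none of these differences was tested. The mean log2 signal of the lysosome list was 0.20 higher in wild type 1 than in wild type 2 but -0.05 in heterozygous 2 against heterozygous 1 and 3, a gap of 0.258. The gap was 0.237 for the amnion and extraembryonic mesoderm list, 0.323 for the streak and tail bud list, 0.0858 for the endothelium list and 0.0739 for the cholesterol list. Among named genes, Lgmn, the lysosomal protease legumain, read 129.9 in wild type 1 against 64.3 in wild type 2, and 52.3 in heterozygous 2 against 124.7 and 84.9, a gap of 1.9. Its near-zero pool difference is therefore the mean of opposite values. Igdcc4 had a gap of -1.48 and Rad51c one of 0.505.

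The 18S ribosomal control probe set, which enters no comparison, read 1099.8 in heterozygous 1, 114.9 in heterozygous 2, 110.2 in knockout 1 and 136.9 in knockout 2, above both wild-type arrays (67.6 and 57.2). In the high pools it read 67.6 and 114.9, and in the low pools 57.2, 1099.8 and, for heterozygous 3, 62.1. The part of this signal in the split was not tested.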

How the results depend on the processing

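With all 5 control pools, 17 genes were higher and 14 lower, and 10 and 4 in both genotypes. With a pseudocount of 16, 6 were lower and 2 lower in both genotypes. With no brightness filter these 4 counts were 141, 88, 67 and 36, and with a filter at the 60th percentile 6, 1, 5 and 0. With the filter on the 5 control arrays, chosen after seeing the data, 8 were higher and 5 higher in both genotypes. At 1.5-fold 92 and 93 were called and at 3-fold 8 and 2. Leaving out 1 control array gave 23 to 37 higher and 9 to 29 lower. The mean of all probe sets ended the calls of Afp, Malat1 and Ceacam1. The median of the endocytic list turned to -0.021 with that mean; the cause was not tested.

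In the knockout comparison, 346 rose and 386 fell. Leaving out 1 array gave 86 to 364 and 72 to 377, and a replicate block 184 and 152. Deviations of same-numbered pools from their group means had r of -0.29 to 0.0047. In a group of 2 arrays these deviations mirror each other, so the values cannot settle whether the numbers pair the samples. With the block the calls of Ttr, Apoc2, Car4 and Hkdc1 were lost. Quantile normalisation, median centring, equal genotype weights, 3 genotypes in the fit, no trend and array weights kept every count within 1.5 times. Dim signals set the limit of these values, since MAS5 is least precise there.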
